A study of Mus musculus with 4 samples.

Results

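The genes described here are those whose symbol marks them as proteasome genes, that is Psma, Psmb, Psmc, Psmd, Psme, Psmf or Psmg followed by a number, without pseudogene symbols ending in ps. The rule found 50 genes among 25265 in the deposited count table of mouse testis RNA. It uses names and no measured value. Of the 50, 49 encode proteasome subunits, activators, an inhibitor or assembly chaperones. Psmc3ip also matched, although it encodes a partner of the meiotic recombinases and no part of the proteasome. It is counted among the 50 genes unless stated otherwise. In all, 48 genes had enough counts to be tested, and Psmb11 and Psme2b did not.

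All mice were of the C57BL/6 strain and 56 days old, and RNA came from whole testis after depletion of ribosomal RNA. There were 2 libraries labelled control and 2 labelled Ythdf2-vKO, a germ cell-specific mutant of Ythdf2 according to the series title. Ythdf2 encodes a reader of N6-methyladenosine that promotes decay of the RNAs it binds. The labels do not give the deleted segment, the Cre driver or any allele that the controls carry, and they do not say whether libraries came from separate animals, so that p-values measure the spread between these libraries only.

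The 4 libraries held 24862518 to 29561182 counts. Ythdf2 itself had 1193 and 1604 counts among controls, against 1774 and 1807 in the mutant-labelled libraries. It was thus not lower under the mutant label, and the difference was not called (log2 fold change 0.35, SE 0.13, edgeR adjusted p 0.238). Counts over a whole gene do not show which exons are covered, so they cannot settle the genotype. Directions below are therefore those of the libraries labelled Ythdf2-vKO, called vKO libraries for short. Of 21132 genes tested, 59 were called higher and 24 lower in the vKO libraries at an adjusted p under 0.05. Lists of germ cell and Sertoli cell markers were also read, and their levels are given below. Each of their genes had counts, as has every gene in the deposited table, so their presence alone does not show testis identity.

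The proteasome degrades proteins that carry ubiquitin. Its 20S core is a barrel of stacked rings, with outer rings of alpha subunits that gate the entry and inner rings of beta subunits that hold the proteolytic sites. The 19S cap recognises ubiquitin, removes it and unfolds the substrate with a ring of ATPases. Other activators can replace the 19S cap at the end of the barrel. The testis makes forms of its own: Psma8 encodes an alpha subunit that takes the place of the one encoded by Psma7 in meiotic and later germ cells, and Psme4 encodes the activator PA200, known for degrading acetylated core histones in spermatids. In whole-testis RNA, fewer cells of a type and less RNA per cell cannot be told apart.

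NFE2L1 is a transcription factor that raises many proteasome genes together through antioxidant response elements when proteasome activity is short. Promoter sequences from RefSeq on GRCm38.p6, from 250 bases before to 50 after the start site, were matched by symbol to 42 of the 50 genes. The element was searched as TGACNNNGC on both strands. It was found in 6 of the 42 genes (14.3%), against 14.0% of 27025 genes with a promoter in the same table. The CCAAT box, the letters CCAAT bound by NF-Y, was found in 15 of the 42 (35.7%) against 41.1%. A match describes letters in this window and is not a binding site. The 6 windows with the element are shown because they are the only matches among the 42 genes searched. They are given in the direction of the match, with the element in capitals and up to 8 bases on each side.
Psme4, chr11:30771768-30771776, minus strand: tcttctggTGACGCTGCagccgcag
Psmb5, chr14:54618034-54618042, minus strand as its gene: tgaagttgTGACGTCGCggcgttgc
Psmb6, chr11:70525348-70525356, plus strand: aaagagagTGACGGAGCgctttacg
Psmc6, chr14:45329597-45329605, minus strand: gcaatgccTGACTTAGCtactggct
Psmd9, chr5:123228159-123228167, plus strand: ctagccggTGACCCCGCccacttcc
Psmd12, chr11:107479281-107479289, minus strand: ggcaaatgTGACACAGCaga

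The whole promoters of Psme4 and Psma7 are given because the results below turn on Psme4, the gene of the activator PA200, and on Psma7, the constitutive counterpart of Psma8, with elements and CCAAT boxes in capitals on the strand of the gene. The promoter of Psme4 (chr11:30771525-30771824, plus strand) holds 65.3% G and C and has an element that begins 7 bases before the start site and spans it, read on the opposite strand. The promoter of Psma7 (chr2:180042415-180042714, minus strand) holds 77.0% G and C, a CCAAT box 196 bases before the start site and no element. Both start sites are those of RefSeq and differ from the gene starts of the GENCODE M21 annotation, whose positions are given below.
Psme4: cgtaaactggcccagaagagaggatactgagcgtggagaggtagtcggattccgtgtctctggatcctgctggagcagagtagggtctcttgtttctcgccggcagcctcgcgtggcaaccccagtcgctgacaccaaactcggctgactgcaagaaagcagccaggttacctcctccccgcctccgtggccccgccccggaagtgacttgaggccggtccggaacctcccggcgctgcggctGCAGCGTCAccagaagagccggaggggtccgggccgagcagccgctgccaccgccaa
Psma7: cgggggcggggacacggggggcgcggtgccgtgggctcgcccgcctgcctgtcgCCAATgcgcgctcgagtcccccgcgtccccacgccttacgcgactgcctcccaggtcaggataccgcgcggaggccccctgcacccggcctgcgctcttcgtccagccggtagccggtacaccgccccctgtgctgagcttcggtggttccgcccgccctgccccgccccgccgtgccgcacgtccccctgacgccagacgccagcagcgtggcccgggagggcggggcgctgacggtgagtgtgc

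Levels differed widely within the classes. They are given as CPM (reads of a gene scaled to a common library size, after TMM scaling) divided by the length in kb of the principal transcript in the GENCODE M21 annotation, as mean ± SD over all 4 libraries. Among the 7 constitutive alpha genes, Psma6 stood at 298 ± 29.0 CPM per kb, while the others lay between 11.6 (Psma2) and 56.7 (Psma4). Among the 7 constitutive beta genes the range was narrower, from 37.2 ± 2.84 for Psmb1, within the spread of Psmb5 at 38.0 ± 4.86, to 172 ± 10.4 CPM per kb for Psmb6, which encodes the subunit with caspase-like activity. Psma6 lay 25.8-fold above Psma2 by transcript length and 8.77-fold by coding length. By coding length the lowest genes were Psma7 at 36.1 among the alpha and Psmb5 at 43.1 CPM per kb among the beta genes. Several core genes have near copies, among them Psmb5 with Gm3375 (98.9% identity over 796 nt). How reads shared with such copies were counted is not given, and their part in these levels was not tested.

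The 19S genes had 1 or a few members above the rest as well. Psmc3 was the highest of all 50 genes at 424 ± 40.9 CPM per kb, followed among the 6 ATPase genes by Psmc2 at 204 ± 16.4. The other 4 lay between 21.3 for Psmc6 and 78.7 for Psmc5, so that Psmc3 exceeded Psmc6 19.9-fold by transcript length and 12.8-fold by coding length. Among the 11 non-ATPase genes, Psmd8 was at 211 ± 12.03 CPM per kb, Psmd2, a scaffold subunit of the base, at 169 ± 10.03 and Psmd4, a ubiquitin receptor, at 127 ± 5.84. The lowest was Psmd14, the deubiquitinase of the cap, at 21.7 ± 1.14, close to Psmd1 at 22.2 ± 1.74. These 2 differed by less than their spread over libraries, and by coding length Psmd1 was the lower one.

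**Figure D1:**
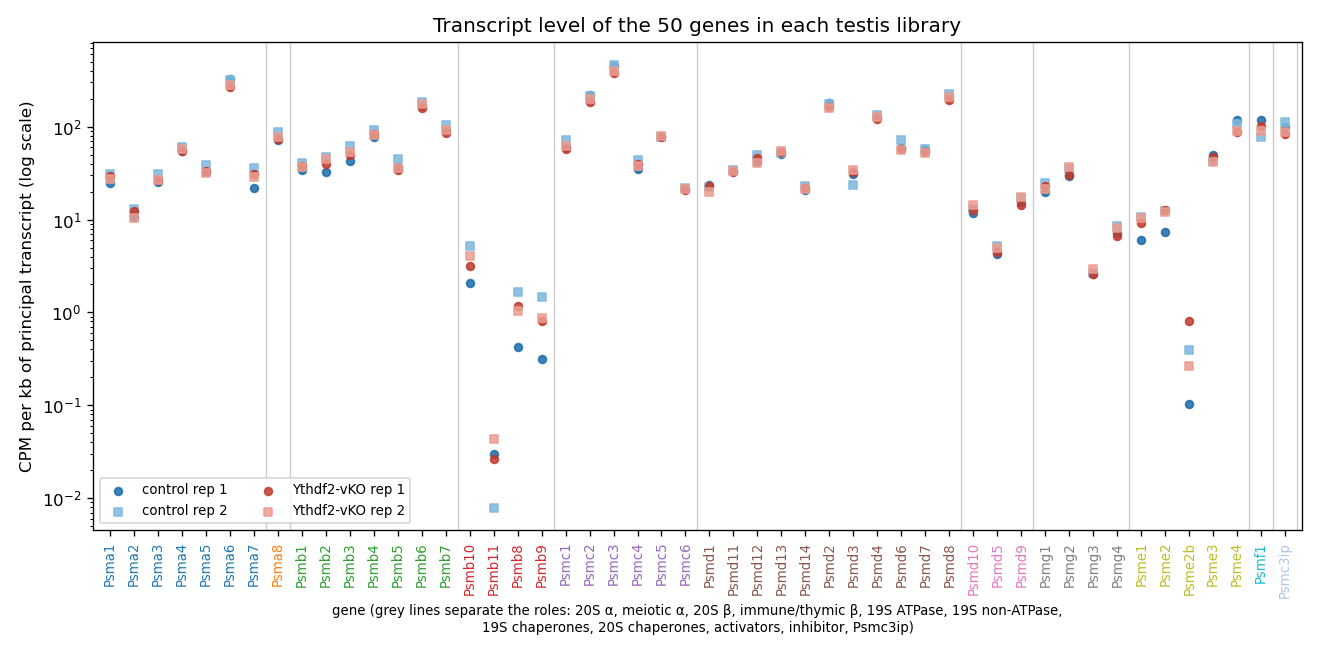
Level of each of the 50 genes in each library, in CPM per kb of principal transcript on a log axis, with genes ordered by role along the horizontal axis. Each point is 1 library (blue control, red Ythdf2-vKO; circles replicate 1, squares replicate 2). Psmc3 and Psma6 stand above their classes, the immune genes Psmb8 and Psmb9 lie lowest of the tested genes, and for most genes the 4 libraries lie close together.

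Levels of the assembly chaperones reached into the range of the core genes. Of the 4 genes whose products assemble the 20S core, Psmg2 had 32.9 ± 3.62, Psmg1 22.2 ± 2.095, Psmg4 7.59 ± 0.875 and Psmg3 2.70 ± 0.164 CPM per kb. The 3 chaperones of the 19S base, Psmd5, Psmd9 and Psmd10, lay between 4.69 and 16.1 CPM per kb. Psmf1, which encodes the inhibitor PI31, was at 96.8 ± 16.8 CPM per kb, above the median of 37.6 over the 50 genes.

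No proteasome gene was called in either direction. By the quasi-likelihood test of edgeR, with p-values adjusted after Benjamini-Hochberg to a limit of 0.05, 0 of the 48 tested genes were higher and 0 lower, where 0.279% and 0.114% of all genes tested were. The lowest adjusted p among them was 0.22, for Psme4. Before adjustment, 2 genes had a p under 0.05, both lower in the vKO libraries (Psme4 and Psmc3ip), and 0 were higher, against 6.47% of all genes lower and 7.65% higher. A DESeq2 Wald test also called 0 in both directions. For Psma8 and Psme4 it gave the log2 fold changes and adjusted p-values of the authors' deposited table. It thus repeats the authors' result and is not separate from it. In the authors' deposited table, 47 of the 50 genes had an adjusted p, the lowest being 0.221, and 2 had an unadjusted p under 0.05.

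The log2 fold changes of the 48 genes ran from -0.34 to 0.31, with a median of -0.05 against 0.00265 over all genes tested. They were below 0 for 36 genes and above 0 for 12, while 49.7% of all genes lay below 0 and 50.3% above. With scaling by library totals alone, the median of these genes was 0.02. Leaving out the TMM factors (0.941 and 1.015 for control, 1.019 and 1.028 for vKO libraries) raised all log2 fold changes by about the same amount. The median over all genes was not computed under that scaling. Thus neither 0.02 nor the class medians below with library totals can be set against 0.00265. The CPM of the groups did not overlap for 12 genes that were lower and 2 that were higher in the vKO libraries, where 22.6% and 22.7% of all genes did so. Without Psmc3ip, 35 of 47 tested genes lay below 0, 11 were lower without overlap, and Psme4 alone had an unadjusted p under 0.05. Medians by class were -0.06 for the alpha genes, -0.05 for the beta genes, -0.09 for the 19S ATPases and -0.09 for the 19S non-ATPases. With library totals alone the median of the beta genes was above 0, at 0.01, and that of the alpha genes was -0.0029. With an offset for GC content the alpha median was 0.00124. The remaining classes had medians of -0.000698 (19S chaperones), 0.04 (20S chaperones) and 0.08 (4 tested activators), and the first of these was 0.06 with library totals alone. The median of the 20S chaperones was -0.10 without control replicate 1, 0.14 without control replicate 2 and -0.035 without vKO replicate 2.

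**Figure D2:**
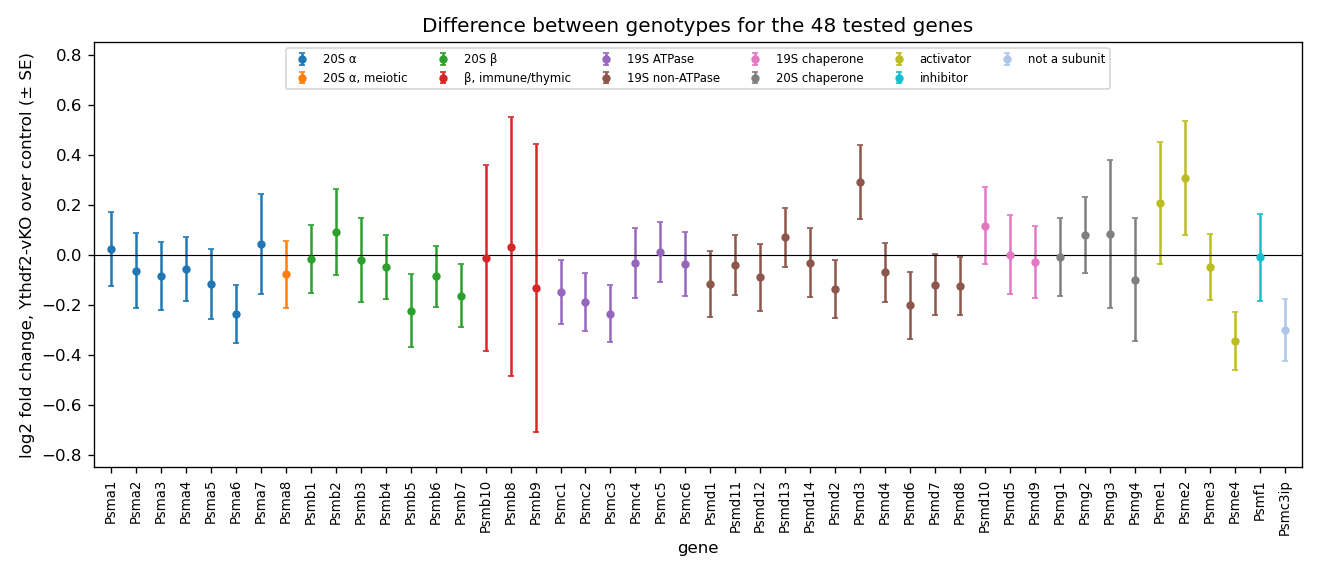
Log2 fold change of the 48 tested genes in libraries labelled Ythdf2-vKO over control, with its standard error as a bar, coloured by role. All values lie between -0.34 and 0.31, and bars are widest for the immune genes Psmb8, Psmb9 and Psmb10, which had few counts.

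Without Psmc3ip, the other 49 genes took 5785 and 5813 CPM in the control libraries and 5248 and 5304 CPM in the vKO libraries. The groups did not overlap after TMM scaling, and the mean was 9.01% lower in the vKO libraries. With library totals alone the sums were 5439 and 5895 against 5342 and 5448, so that the groups overlapped and the difference was 4.79%. No test was made of this sum, since an exact permutation test of 2 libraries against 2 cannot give a two-sided p below 0.333. The sum is weighted towards the most abundant genes. Of the 7 genes with a mean of at least 200 CPM, a limit chosen after the values were seen, 7 had a log2 fold change below 0 (Psmc3, Psme4, Psmd2, Psmf1, Psmc2, Psmd8 and Psma6), as had 77.0% of the 1159 tested genes at or above that limit. Those 1159 genes had a median log2 fold change of -0.12. The 7 genes ran from -0.34 (Psme4) to -0.01 (Psmf1), with Psmc2 in the middle at -0.19. The log2 difference of the sum of 49 genes was -0.14, which is weighted by level and is not a like measure to these medians. The value of Psmf1 was near 0 and turned above it under 6 of the 13 alternatives. Across the 48 genes, the Pearson correlation of the log2 fold change with the log2 mean level was -0.474, as a description over genes that share the same 4 libraries.

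Markers of other testis cells were read beside these values. Of 14 spermatocyte markers, 13 had a log2 fold change below 0, and their summed level was 2270 and 2405 CPM in control against 2170 and 2071 CPM in the vKO libraries. For 11 markers of elongating spermatids the sums were 13427 and 11245 against 10469 and 10879 CPM, with 10 of the 11 below 0. For 11 Sertoli cell markers they were 1000 and 1044 against 1441 and 1265 CPM, with 11 of 11 above 0 and 1 of them called higher. Of 11 spermatogonia markers, 11 were above 0, with sums of 161 and 157 against 197 and 174 CPM. Of 9 round spermatid markers, 6 were above 0, and their sums overlapped at 1663 and 1703 against 1591 and 1726 CPM. None of the markers on these 5 lists was at 0 in all libraries, which holds for every gene in the deposited table. The part of cell composition in the values of the proteasome genes was not tested.

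Psma8 and Psma7 are the meiotic and the constitutive form of the same alpha position. Psma8 (ENSMUSG00000036743, plus strand of chromosome 18, 14706151 to 14762301 in GRCm38) had 2823 and 4449 counts among controls, against 3327 and 3525 among vKO libraries, or 121 and 148 CPM against 124 and 131 CPM. The groups overlapped, with control replicate 1 lowest and control replicate 2 highest. The log2 fold change was -0.08 (SE 0.13, edgeR adjusted p 0.848). Without control replicate 2 it was 0.08.

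Psma7 (ENSMUSG00000027566, minus strand of chromosome 2, 180036374 to 180042433) had 471 and 978 counts among controls, against 756 and 709 among vKO libraries, or 20.2 and 32.6 CPM against 28.2 and 26.3 CPM. Control replicates were again the lowest and the highest. The log2 fold change was 0.04 (SE 0.20, edgeR adjusted p 0.958), with -0.27 when control replicate 1 was left out and -0.14 under the GC offset. Per library, the ratio of Psma8 to Psma7 counts was 5.99 and 4.55 among controls, against 4.401 and 4.97 among vKO libraries. These ratios overlapped, with a mean log2 difference of -0.16 and an exact two-sided permutation p of 0.667 (n = 2 against 2). The difference was 0.04 without control replicate 1 and -0.36 without control replicate 2. Per kb of transcript, Psma8 exceeded Psma7 2.64-fold over the 4 libraries, and per coding length 4.85-fold. Psma8 thus stood above the constitutive gene at its position in each of the 4 libraries, at 2.38 to 3.24 times per kb.

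Psme4 had the lowest log2 fold change of the 48 genes. It lies on the plus strand of chromosome 11, 30771726 to 30880361 in GRCm38 (ENSMUSG00000040850). It had 17921 and 20576 counts among controls, against 15099 and 15650 among vKO libraries, or 767 and 686 CPM against 564 and 580 CPM. Both control libraries lay above both vKO libraries. The log2 fold change was -0.34 (SE 0.12), at an unadjusted p of 0.0118 and an edgeR adjusted p of 0.22, so that it did not pass. In the authors' deposited table the log2 fold change of Psme4 was -0.35 with an adjusted p of 0.221. In the edgeR fit, Psme4 was at -0.42 with an adjusted p of 0.00494 without control replicate 2, a fit with 1 control library in which 554 genes were higher and 523 lower. Over the alternatives that kept all 4 libraries, its adjusted p ranged from 0.101 to 0.305. The other 5 genes with an antioxidant response element in the promoter windows shown above had log2 fold changes of -0.22 (Psmb5), -0.09 (Psmb6), -0.09 (Psmd12), -0.04 (Psmc6) and -0.03 (Psmd9), where the median of all 48 genes was -0.05.

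The other activators form rings that bind the 20S core without ATP. Psme3, the nuclear activator PA28 gamma, had 133 and 113 CPM among controls, against 126 and 111 CPM among vKO libraries, with overlapping groups. Its log2 fold change was -0.05 (SE 0.13), and 0.02 with library totals alone. Psme1 and Psme2 encode PA28 alpha and beta, which interferon induces together with the immune subunits. Psme1 had 6.72 and 11.9 CPM among controls, against 10.2 and 11.4 CPM among vKO libraries, from 157 and 357 against 274 and 308 counts. Emc9 overlaps exons of Psme1 on the opposite strand, with 43 and 87 counts among controls, against 70 and 69 among vKO libraries. The strand setting of the counting is not given in the sources used here. Psme2 had 7.14 and 12.01 CPM among controls, against 12.2 and 11.6 CPM among vKO libraries. The log2 fold change of Psme2 was 0.31 (SE 0.23, edgeR adjusted p 0.599), the highest among the 48 genes. In both Psme1 and Psme2, control replicate 1 was the lowest library and control replicate 2 lay within the range of the vKO libraries or above it. Without control replicate 2 the value for Psme2 was 0.74 at an adjusted p of 0.035, and without control replicate 1 it was -0.02.

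Per kb of transcript, the order of the activator levels was Psme4 at 100.03 ± 14.7, Psme3 at 45.3 ± 4.01, Psme2 at 11.2 ± 2.51 and Psme1 at 9.06 ± 2.11 CPM per kb. Psme2 lay above Psme1 in each library. It had 7.43 and 12.5 CPM per kb among controls and 12.7 and 12.1 among vKO libraries. Psme1 had 6.04 and 10.7 among controls and 9.20 and 10.3 among vKO libraries. The order of Psme4 and Psme3 depended on the length used: their ratio was 2.21 by transcript length and 0.741 by coding length. Psme2b, a near copy of Psme2 with 99.4% identity over 794 nt, had 2 and 10 counts among controls, against 18 and 6 among vKO libraries and was not tested. The sources used here do not say to which copy shared reads were counted, or whether they were counted at all.

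The immune beta subunits Psmb8, Psmb9 and Psmb10 replace Psmb5, Psmb6 and Psmb7 in immune and interferon-treated cells. Psmb8 had 16 and 82 counts among controls, against 51 and 45 among vKO libraries. Psmb9 had 10 and 60 against 29 and 32 counts, and Psmb10 had 63 and 204 against 112 and 144 counts. In all 3 genes both vKO libraries lay between the control libraries. Their log2 fold changes were 0.03 (SE 0.52), -0.13 (SE 0.58) and -0.01 (SE 0.37). Of these, Psmb8 was at -0.03 with the GC offset, and Psmb10 was at 0.03 with library totals alone. Psmb11, the thymic form, had 3 and 1 counts among controls, against 3 and 5 among vKO libraries.

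Together the 3 immune genes had 0.0138 and 0.0374 times the counts of Psmb5, Psmb6 and Psmb7 in the control libraries, and 0.0281 and 0.0294 times in the vKO libraries. The medians of the 3 were 1.38 without control replicate 2 and -0.62 without control replicate 1, so the direction turned with the control library that was kept. A list of T and NK cell markers had summed levels of 2.99 and 7.005 CPM among controls, against 5.60 and 6.63 CPM among vKO libraries, and its tested markers had 0.54 as median log2 fold change. Of its 6 markers, 3 (Cd3d, Cd8a and Nkg7) had both vKO libraries between a lower control replicate 1 and a higher control replicate 2, as the immune genes did, and the other 3 (Cd3e, Cd4 and Trac) did not. The macrophage list of 8 markers summed to 401 and 433 against 365 and 393 CPM. Most of it came from Aif1, with 344 and 340 against 278 and 322 CPM, so the sum does not describe the other markers. Of the 8 log2 fold changes, 6 were above 0. The order of the immune genes was found for 4 of the 8 (Cd68, C1qa, C1qb and C1qc) and not for Adgre1, Csf1r, Mrc1 or Aif1. As holds for every gene in the deposited table, no macrophage or T and NK marker was at 0 in all libraries. Nkg7 had 0 counts in control replicate 1. The part of immune cells in these values was not tested. Tap1 overlaps Psmb9 on the opposite strand and had 20 and 132 counts among controls, against 36 and 66 among vKO libraries, and although the library kit keeps strand, the strand setting of the counting is not given in the sources used here.

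Differences between the control libraries went beyond the immune genes. The level in control replicate 2 exceeded that in control replicate 1 for 13 of the 14 constitutive alpha and beta genes, with a median log2 ratio of 0.27. For the 17 genes of the 19S ATPases and non-ATPases the median was 0.05, with 12 of 17 higher in control replicate 2. Over 17827 genes with a mean of at least 1 CPM the median was -0.0024. Between the vKO libraries the corresponding medians were 0.02 for the 20S and 0.04 for the 19S genes. Psmf1 had the opposite order, with 444 and 296 CPM among controls, against 392.02 and 343 CPM among vKO libraries. The log2 fold change of Psmf1 was -0.01 (SE 0.17), and 0.07 with library totals alone. Leaving out control replicate 1 gave medians of -0.23 for the alpha and -0.17 for the beta genes, and leaving out control replicate 2 gave 0.08 for each.

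**Figure D3:**
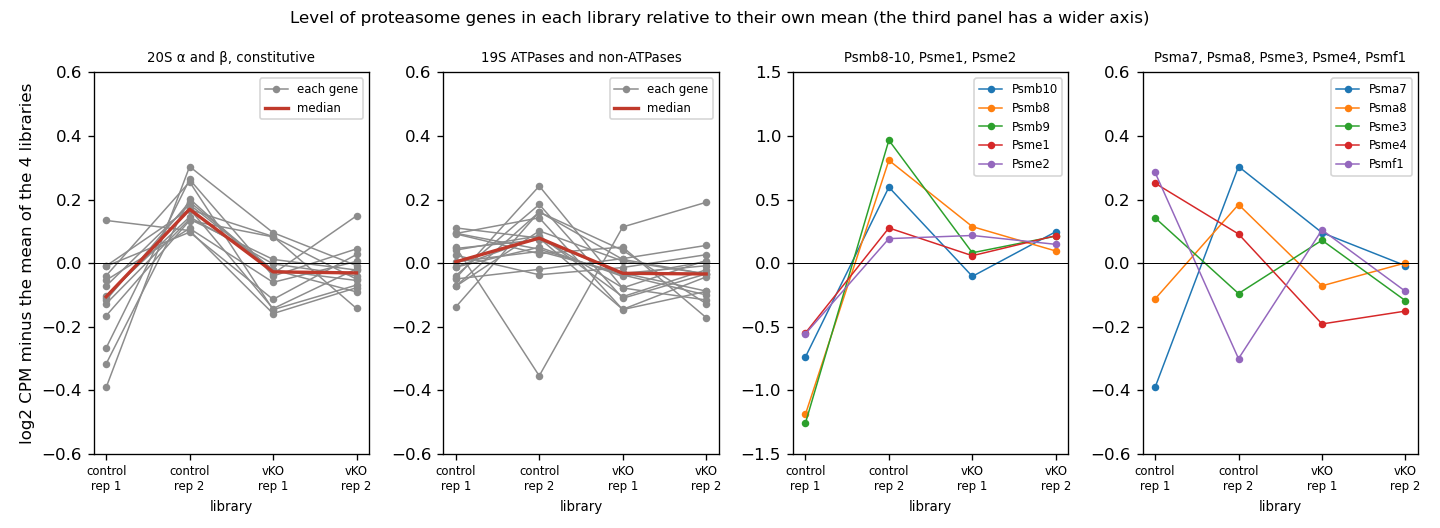
Log2 CPM of each gene in each library minus that gene's mean over the 4 libraries. Grey lines are single genes with their median in red in the first and second panels, and coloured lines are named genes in the others. By their median, constitutive 20S genes lie lowest in control replicate 1 and highest in control replicate 2, the immune genes do so over a wider range, and Psme4 lies lower in both libraries labelled Ythdf2-vKO.

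Among the core subunits with the lowest log2 fold changes was Psma6 (chromosome 12, 55384222 to 55418454), an alpha subunit. It had 340 and 333 CPM among controls, against 278 and 294 CPM among vKO libraries. The groups did not overlap, and the log2 fold change was -0.24 (SE 0.12, edgeR adjusted p 0.389). Psmb5 (chromosome 14, 54614119 to 54618022), which encodes the subunit with chymotrypsin-like activity, had 33.0 and 40.5 CPM among controls, against 30.7 and 32.4 CPM among vKO libraries. Its log2 fold change was -0.22 (SE 0.15; edgeR, adjusted p 0.538) and -0.07 with control replicate 2 left out. Psmb2 had the highest value of the core, with 28.02 and 40.2 CPM among controls, against 34.1 and 38.7 CPM among vKO libraries, so that its groups overlapped, and the log2 fold change was 0.09 (SE 0.17). Psmb5 has a near copy, Gm3375, with 98.9% identity over 796 nt, which is absent from the deposited table and so has no counts here.

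In the 19S cap, Psmc3 (chromosome 2, 91054009 to 91066369), an ATPase, had 737 and 763 CPM among controls, against 625 and 650 CPM among vKO libraries. The groups did not overlap and the log2 fold change was -0.24 (SE 0.11, edgeR adjusted p 0.379). Psmd3 (chromosome 11, 98682554 to 98695979), a scaffold subunit of the lid, went the other way, with 67.0 and 50.6 CPM among controls, against 70.0 and 73.8 CPM among vKO libraries. Its log2 fold change was 0.29 (SE 0.15; edgeR, adjusted p 0.407). Control replicate 2 stood apart from the other 3 libraries for Psmd3, and the value was 0.50 at an adjusted p of 0.0131 without control replicate 1 and 0.10 without control replicate 2. Psmd10, the base chaperone also known as gankyrin, had 17.0 and 18.8 CPM among controls, against 18.3 and 20.5 CPM among vKO libraries, or log2 fold change 0.12 (SE 0.16). Slc39a13 overlaps exons of Psmc3 on the opposite strand, with 1073 to 1278 counts per library against 16721 to 22874 for Psmc3.

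Psmc3ip, which is no subunit, had 128 and 146 CPM among controls, against 109 and 114 CPM among vKO libraries. Its product, also known as HOP2, stimulates strand invasion by the recombinases of meiosis. The groups did not overlap, and the log2 fold change was -0.30 (SE 0.12, edgeR adjusted p 0.301). Without control replicate 1 it was -0.40 at an adjusted p of 0.0293. Mlx overlaps its exons on the opposite strand and had 114 to 208 counts per library.

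Genes that work with the proteasome were read from a list of 34 symbols, of which 30 were in the table and tested. None was called, with 0 higher and 0 lower by edgeR's adjusted p, and at an unadjusted p under 0.05 there were 2 higher and 4 lower, where 7.65% and 6.47% of all genes were. Their median log2 fold change was -0.08, with 12 above 0. Among the shuttles that carry ubiquitinated proteins to the proteasome, the values went both ways. Ubqlnl, a ubiquilin-like gene, had 328 and 308 CPM among controls, against 222 and 224 CPM among vKO libraries, or log2 fold change -0.51 (SE 0.12, edgeR adjusted p 0.0871). Ubqln2 had 12.6 and 10.3 CPM among controls, against 19.5 and 15.5 CPM among vKO libraries, or log2 fold change 0.62 (SE 0.18; edgeR, adjusted p 0.163). Ubqln4 had 56.3 and 45.4 CPM among controls, against 67.05 and 65.4 CPM among vKO libraries, with groups that did not overlap and 0.38 (SE 0.14) as its log2 fold change. Ubqlnl was therefore the nearest of the 30 to the threshold, without passing it.

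Other genes of that list had an unadjusted p under 0.05 and lower values in the vKO libraries. Ngly1, which removes glycans from NFE2L1 and thereby takes part in its activation, had 357 and 334 CPM among controls, against 279 and 289 CPM among vKO libraries (log2 fold change -0.28, SE 0.12). Nploc4, a cofactor of the p97 segregase, had 199 and 148 CPM among controls, against 141.5 and 131 CPM among vKO libraries (log2 fold change -0.35, SE 0.15). Neither passed adjustment. Nfe2l1 itself had 72.1 and 62.9 CPM among controls, against 76.0 and 75.1 CPM among vKO libraries, or log2 fold change 0.16 (SE 0.13). Pomp, which matures the 20S core, was at -0.09 (SE 0.17), the ubiquitin receptor Adrm1 at 0.30 (SE 0.16), and the cap deubiquitinases Usp14 and Uchl5 at -0.17 (SE 0.14) and -0.04 (SE 0.13).

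**Figure D4:**
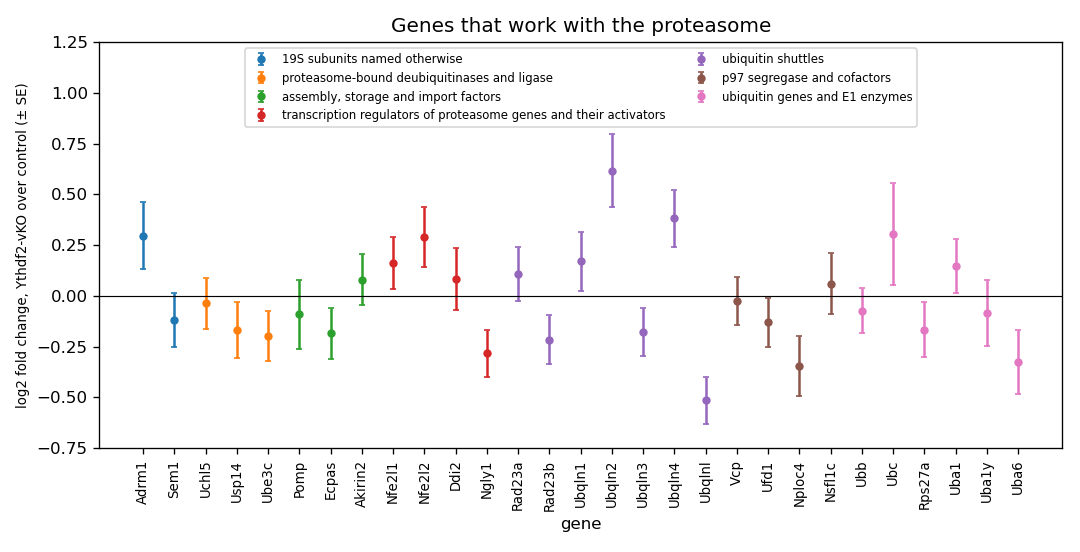
Log2 fold change, libraries labelled Ythdf2-vKO over control, of tested genes that work with the proteasome, with standard errors as bars and colours for their roles. Ubqlnl has the lowest value at -0.51 and Ubqln2 the highest at 0.62, and no gene passed an adjusted p of 0.05.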

How the data were processed

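RNA from whole testis was sequenced in 4 libraries, 2 per group. Per the submitters' processing notes, the authors used HISAT2 2.1.0 and HTSeq 0.6.1p1. The genome build and the strand setting of the counting are not given in the sources used here. In the deposited table each library has a column of raw counts. Per the file headers, the remaining columns hold a mean of the authors' normalized counts per gene (a signal averaged over libraries), the authors' log2 fold change with its standard error, the authors' Wald score, and the authors' p-value with its adjusted form. Every gene in the table has at least 10 counts over the 4 libraries. Spreadsheet dates in 26 symbols were turned back into names.

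Counts were fitted over all genes with edgeR 4.0.16 (quasi-likelihood test, TMM scaling, filterByExpr on low counts, robust estimation, limma 3.58.1, R 4.3.3) and p-values were adjusted by Benjamini-Hochberg over 21132 genes. The procedure was tested on simulated data. DESeq2 1.42.0 was an alternative. Depth was 24862518 to 29561182 counts per library, and the common biological coefficient of variation was 13.5%. Of 25265 gene IDs, 25241 matched GENCODE M21 (GRCm38), which gave positions and principal transcript lengths. Near copies were searched with BLAST 2.17.0 (95% identity over 200 nt). Replicate numbers were not taken as pairs. The members and lists were chosen with earlier results of these data known. Values per library are given for Psma7, Psma8, the activators, the immune beta genes, Psmf1 and the 5 highest and 5 lowest log2 fold changes, and for partner genes with an unadjusted p under 0.05. Pomp, Adrm1, Usp14 and Uchl5 were fixed by name and have a fold change only. Genes named for their level, as the highest or lowest of a class, were chosen after their values were seen. The alternatives were other scalings, filters, a replicate block, a GC offset and leaving out each library. 1 gene of the list of proteasome partners is counted but not reported here by name or value, nor drawn.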

Additional observations from a re-analysis of the deposited data

How the results depend on the processing

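Of 13 alternatives, the 9 that kept all libraries called no proteasome gene. Genes called higher and lower over the whole table were 59 and 24, and they were 181 and 37 with library totals alone, 137 and 80 with the DESeq2 Wald test, 89 and 67 with the GC offset, and 15 were lower without robust estimation. Scaling by library totals alone raised the log2 fold changes of all genes by about the same amount. With it the medians of the 19S ATPases and non-ATPases were -0.031 and -0.030. Psme3 was then at 0.021, Psmb10 at 0.035 and Psmf1 at 0.065. With the GC offset Psma7 was at -0.14, Psmb8 at -0.035 and Psmf1 at 0.010. Fits that left out a library kept 1 in its group, which is assumed to vary like the other group. Over these, all genes called higher numbered 30 to 1048 and lower 5 to 523, and proteasome genes called numbered 0 to 1 in each direction. Medians ran from -0.15 to 0.050 (all proteasome genes), -0.23 to 0.079 (alpha), -0.17 to 0.082 (beta), -0.62 to 1.38 (immune beta), -0.18 to -0.024 (19S ATPase), -0.12 to -0.023 (19S non-ATPase), -0.11 to 0.15 (19S chaperones), -0.10 to 0.14 (20S chaperones) and -0.081 to 0.26 (activators). Single genes ran from -0.23 to 0.079 (Psma8), -0.42 to -0.27 (Psme4), -0.27 to 0.44 (Psma7), -0.14 to 0.69 (Psme1), -0.017 to 0.74 (Psme2), -0.16 to 0.068 (Psme3), -0.62 to 1.38 (Psmb8), -0.82 to 1.40 (Psmb9), -0.52 to 0.82 (Psmb10), -0.27 to 0.30 (Psmf1) and -0.15 to 0.38 (Psmb2). The cause of these changes was not tested.

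With the replicate number as a block, 627 genes were called higher and 390 lower, and adding the GC offset to the block gave 292 and 311. Psmb9 was at 0.10 with the block and at 0.011 with both, Psmb10 at 0.10 with the block, Psmf1 at 0.015 with the block and at 0.037 with both, and Psma7 at -0.083 with both. The numbers were not taken as pairing, since libraries of equal number had deviations with a correlation of 0.0932 (17827 genes) and only 2 such pairs exist. With 2 libraries a group, small differences were not detectable.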

Other observations

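Some proteasome genes have near copies. The sources used here do not say how reads shared with a copy were treated, or whether they were counted at all. Gm13835 is identical to Psma3 over 665 nt with 135 and 219 counts among controls, against 150 and 167 among the vKO libraries. No copy of at least 95% identity over 200 nt was found for Psma6, Psma7, Psma8, Psmc3 or Psme4. Transcript GC content and log2 fold change had a Pearson correlation of 0.217 across the 48 tested genes and 0.208 across 21116 genes, as a description over genes that share the same libraries.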
